A study of Danio rerio with 30 samples.

Results

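The comparison described here is the difference between 2 responses to lipopolysaccharide (LPS) in the spleen of adult zebrafish: the response of fish incubated at 32 °C as embryos minus that of fish incubated at 24 °C. It was computed for every gene as an interaction, the log2 fold change of LPS over control fish at 32 °C minus the one at 24 °C, from the 20 of 30 libraries that carry these temperatures. Of 31901 genes in the deposited table, 17358 passed the filter on low counts and were tested. A negative value means that the LPS-minus-control difference was lower after incubation at 32 °C. There were 4 groups of 5 libraries: 24 °C control, 24 °C LPS, 32 °C control and 32 °C LPS. All fish were of the AB strain, were kept as adults at 28 °C with 12 h of light a day and were sampled at 100 days. LPS fish had received 2 µl of a 50 mg/ml solution of Pseudomonas aeruginosa LPS into the body cavity 12 h before sampling. The labels leave out any treatment of the controls, as well as sex and hour of sampling. In bulk tissue, fewer cells of a type and less RNA per cell cannot be told apart.

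LPS is a component of the outer membrane of Gram-negative bacteria and sets off innate immune signalling, which in fish involves sensing pathways that differ in part from those of mammals. The spleen of fish filters blood, stores red cells and holds macrophages, neutrophils and lymphocytes. Circadian clocks of zebrafish tissues run in most cells and can be set by light: CLOCK and BMAL1 activate the period, cryptochrome and REV-ERB genes, whose products repress that activity. Glucocorticoids, the stress steroids, bind the receptor NR3C1 and raise transcripts such as FKBP5, tsc22d3, KLF9 and PER1 in many vertebrate tissues.

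The 20 libraries held 15586276 to 22976284 counts and between 19367 and 28134 genes with a count. In all, 3 control libraries stood apart by markers of other organs or by the number of genes with a count. In 24 °C control replicate 4 the ovary markers, 21 genes of which 5 were tested, came to 8436 CPM in sum (CPM are counts scaled to library size), against a group median of 31.6, and the acinar pancreas markers to 68825 CPM. Liver markers came to 9986 CPM in 32 °C control replicate 8, where the group median was 351. The highest number of genes with a count, 28134, was that of 32 °C control replicate 2. Some of the results that rest on these libraries are given with and without them. Spleen cell markers were present in every group: those of erythroid cells summed to between 121310 and 390730 CPM, and those of monocytes and macrophages to between 2256 and 6886 CPM. LPS libraries varied as well. In 32 °C LPS replicate 5 the acinar pancreas markers came to 15451 CPM, against a group median of 1060.3. The TMM scaling factors of 32 °C LPS replicates 4, 5 and 2 were 0.672, 0.764 and 1.25, against 0.929 to 1.134 in all other libraries. Replicate 4 of that group had the fewest genes with a count, 19367. LPS libraries were left out only 1 at a time.

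The LPS response differed between the incubation temperatures for 3 genes, all with the lower response at 32 °C: the clock repressor PER1 (ENSDARG00000056885), the Ras-family exchange factor RASGEF1B (ENSDARG00000033614) and TAGAP (ENSDARG00000043475), a gene named for T cell activation. These are 0.0173% of the genes tested at an adjusted p under 0.05 (edgeR's quasi-likelihood test, Benjamini-Hochberg adjustment over all tested genes, used for every adjusted p here unless another tool is named). At an unadjusted p under 0.05 there were 1565 genes, 866 higher and 699 lower at 32 °C, where p alone would give 868. Within one temperature, LPS against control gave 3 called genes at 24 °C (0.0173%), namely RASGEF1B, TAGAP and PER2, and 2 at 32 °C (0.0115%), PER2 and PER1. The comparisons share libraries, so these lists are not independent of the interaction. The count of 3 was 31 with DESeq2, 1 without the 3 libraries that stood apart, 9 without 32 °C LPS replicate 2 and 5 without 32 °C control replicate 3. With the replicate number as a block in the fit, none of the 3 genes was called.

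**Figure D1:**
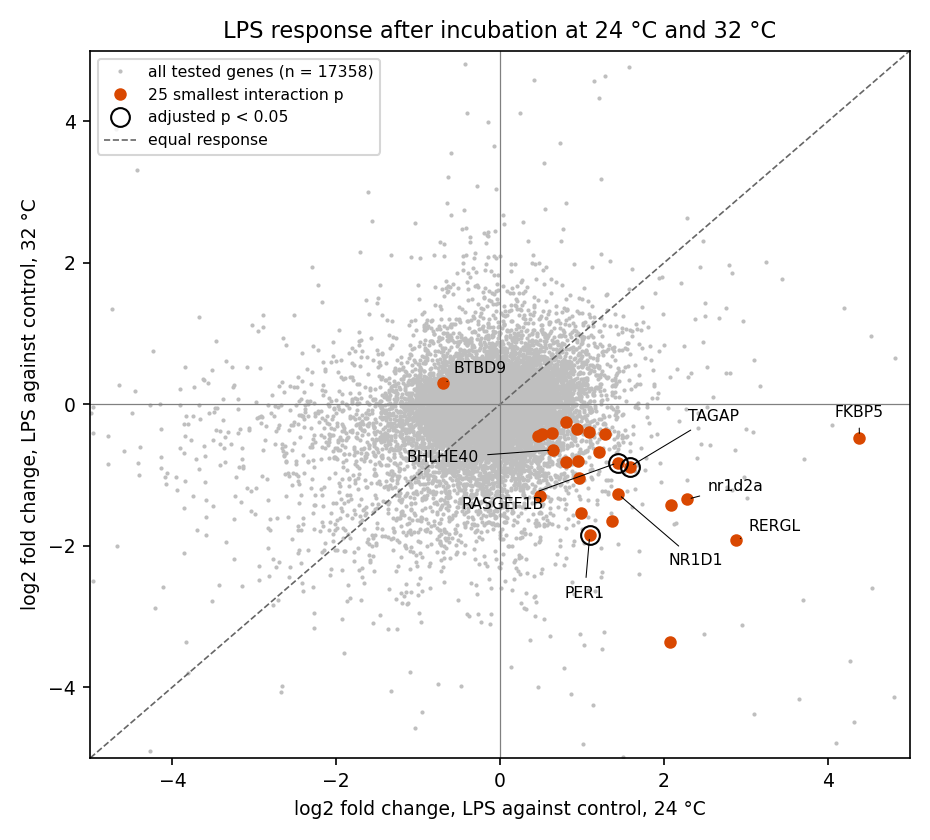
Log2 fold change of LPS over control fish at 24 °C (x axis) and at 32 °C (y axis) for the 17358 tested genes (grey), of which 58 lie outside the axes. Orange points are the 25 genes with the smallest interaction p and circles the 3 called genes. Of the 25, 24 lie to the lower right, above 0 at 24 °C and below 0 at 32 °C, and BTBD9 lies to the upper left.

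PER1 was at 18.9, 26.0, 14.5, 16.2 and 16.2 CPM in the 5 control fish incubated at 24 °C and at 30.3, 36.7, 41.2, 51.9 and 36.2 CPM in the 5 LPS fish. After incubation at 32 °C it was at 75.3, 23.8, 53.2, 85.4 and 58.3 CPM in controls and at 13.3, 16.9, 19.3, 17.97 and 14.6 CPM in LPS fish. Every LPS fish lay above every control at 24 °C, and every LPS fish lay below every control at 32 °C. PER1 was the only 1 of 17358 genes with that arrangement (0.00576%), and 0 genes had the opposite one. The means were 18.4 ± 4.56 and 39.2 ± 8.08 CPM at 24 °C and 59.21 ± 23.6 and 16.4 ± 2.45 CPM at 32 °C (SD, n = 5 each). The log2 fold change was 1.09 ± 0.26 (SE, adjusted p = 0.174) at 24 °C, which did not pass, and -1.85 ± 0.26 (SE, adjusted p = 0.00605) at 32 °C, where PER1 fell. The interaction was -2.95 ± 0.36 (SE, adjusted p = 0.00175), with a 95% interval from -3.71 to -2.19, on between 216 and 1471 counts per library.

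The control fish themselves differed. In the comparison of controls, where 3 genes (0.0173%) were called, PER1 was higher at 32 than at 24 °C by a log2 fold change of 1.69 ± 0.26 (SE, adjusted p = 0.0191). One 32 °C control, replicate 3 at 23.8 CPM, lay within the 24 °C controls, whose highest was 26.0 CPM. Among LPS fish the order was turned round: all 5 fish at 32 °C lay below all 5 at 24 °C, an arrangement that 0.409% of tested genes had. That log2 difference of -1.26 ± 0.26 (SE, adjusted p = 0.878) did not pass. In LPS fish 0 genes were called between the temperatures by edgeR, with 891 at an unadjusted p under 0.05, 5 by DESeq2 and 0 by limma voom. The count there was 112 without 32 °C LPS replicate 2 and 1 without 32 °C control replicate 3.

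RASGEF1B encodes an exchange factor for Ras-family GTPases and is induced by Toll-like receptor ligands in mouse macrophages. It was at 75.8, 56.3, 66.7, 86.1 and 77.9 CPM in controls and at 143, 185, 214, 250.0 and 189 CPM in LPS fish at 24 °C. At 32 °C it was at 205, 133, 282, 278 and 187 CPM in controls and at 125, 141, 102, 76.9 and 167 CPM in LPS fish. The groups did not overlap at 24 °C and overlapped at 32 °C, and all 32 °C controls lay above all 24 °C controls, as they did for 1.08% of all tested genes. RASGEF1B rose with LPS at 24 °C by a log2 fold change of 1.44 ± 0.23 (SE, adjusted p = 0.0292), and its value at 32 °C was -0.83 ± 0.22 (SE, adjusted p = 0.517), not past the threshold. The interaction was -2.26 ± 0.32 (SE, adjusted p = 0.00607), with a 95% interval from -2.93 to -1.60. The second gene with this symbol (ENSDARG00000044251) had an interaction of -1.36 ± 0.42 (SE, adjusted p = 0.467) and was not called, and reads shared by the pair may have been assigned to either.

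TAGAP was at 18.4, 19.02, 10.6, 20.6 and 16.1 CPM in controls and at 35.07, 54.6, 54.6, 70.6 and 39.4 CPM in LPS fish at 24 °C. At 32 °C it was at 69.5, 37.6, 59.5, 59.8 and 37.5 CPM in controls and at 20.7, 23.5, 34.1, 21.7 and 43.2 CPM in LPS fish. As for RASGEF1B, the groups were apart at 24 °C, overlapped at 32 °C, and the 2 sets of controls did not overlap. TAGAP rose with LPS at 24 °C by a log2 fold change of 1.58 ± 0.26 (SE, adjusted p = 0.0292), and its value at 32 °C was -0.88 ± 0.25 (SE, adjusted p = 0.519). The interaction was -2.47 ± 0.36 (SE, adjusted p = 0.00683), with a 95% interval from -3.22 to -1.72. The related gene tagapa (ENSDARG00000002353) was not called by edgeR, and reads shared by these genes may have been assigned to either. At 24 °C tagapa had 253, 564, 116, 234 and 466 raw counts in controls and 705, 399, 440, 286 and 362 in LPS fish. At 32 °C it had 225, 370, 188, 246 and 281 in controls and 1099, 295, 343, 180 and 883 in LPS fish. In controls TAGAP was higher at 32 than at 24 °C by a log2 fold change of 1.64 ± 0.26 (SE, adjusted p = 0.0191) and RASGEF1B by 1.58 ± 0.23 (SE, adjusted p = 0.0171).

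All 3 interaction calls held when each of the 20 libraries was left out in turn (PER1 between -3.13 and -2.78, RASGEF1B between -2.39 and -2.11, TAGAP between -2.65 and -2.30). None held with the replicate number as a block (PER1 -2.85, adjusted p = 0.187, RASGEF1B -2.28, adjusted p = 0.178, TAGAP -2.78, adjusted p = 0.116). The block leaves fewer residual degrees of freedom. Replicates 6 and 10 of the 32 °C controls share their number with no other library, so they add nothing to that fit. Why the calls were lost there was not tested. The labels do not state that equal numbers are pairs. Without the 3 libraries that stood apart PER1 remained called (-2.48, adjusted p = 0.0360), while RASGEF1B (-2.11) and TAGAP (-2.10) each had an adjusted p of 0.136. In that fit, which has fewer controls at each temperature, 0 genes were called for LPS within either temperature or between controls. With each of the 20 libraries left out in turn, LPS at 32 °C gave 2 to 3 called genes. The calls within 24 °C were less steady: 0 genes were called without any 1 of the 5 controls incubated at 24 °C or of 24 °C LPS replicates 2, 3, 4 and 8. Among controls 0 genes were called without any 1 of 24 °C replicates 2, 4 and 8 or of 32 °C replicate 8, 1 without 24 °C replicate 3 or 5 or 32 °C replicate 2, 5 without 32 °C replicate 3 and 9 without 32 °C replicate 6.

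Markers of acinar pancreas, an organ next to the spleen, differed between these groups. Their summed level had a median of 1044 CPM in 24 °C controls (467 to 68825), 5778 in 24 °C LPS fish (424 to 16383), 17952 in 32 °C controls (962 to 27314) and 1060.3 in 32 °C LPS fish (252 to 15451). The medians were thus low in 24 °C controls and 32 °C LPS fish and high in the other groups, and the ranges overlapped. Of 28 acinar genes tested, 22 had an interaction below 0, with a median of -0.53. Without the 3 libraries that stood apart 27 of 28 were below 0, with a median of -4.79. Those 3 are all controls and include the 24 °C control at 68825 CPM, while the 32 °C LPS library at 15451 CPM was kept. Endocrine pancreas genes had 8 of 11 below 0 and a median of -1.54. With the acinar sum as a covariate PER1 (-3.14, adjusted p = 0.00138), RASGEF1B (-2.32, adjusted p = 0.0119) and TAGAP (-2.63, adjusted p = 0.00634) were still called. In that fit the median interaction was -0.855 over glucocorticoid-responsive genes and -0.32 over clock genes, lists described below.

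**Figure D2:**
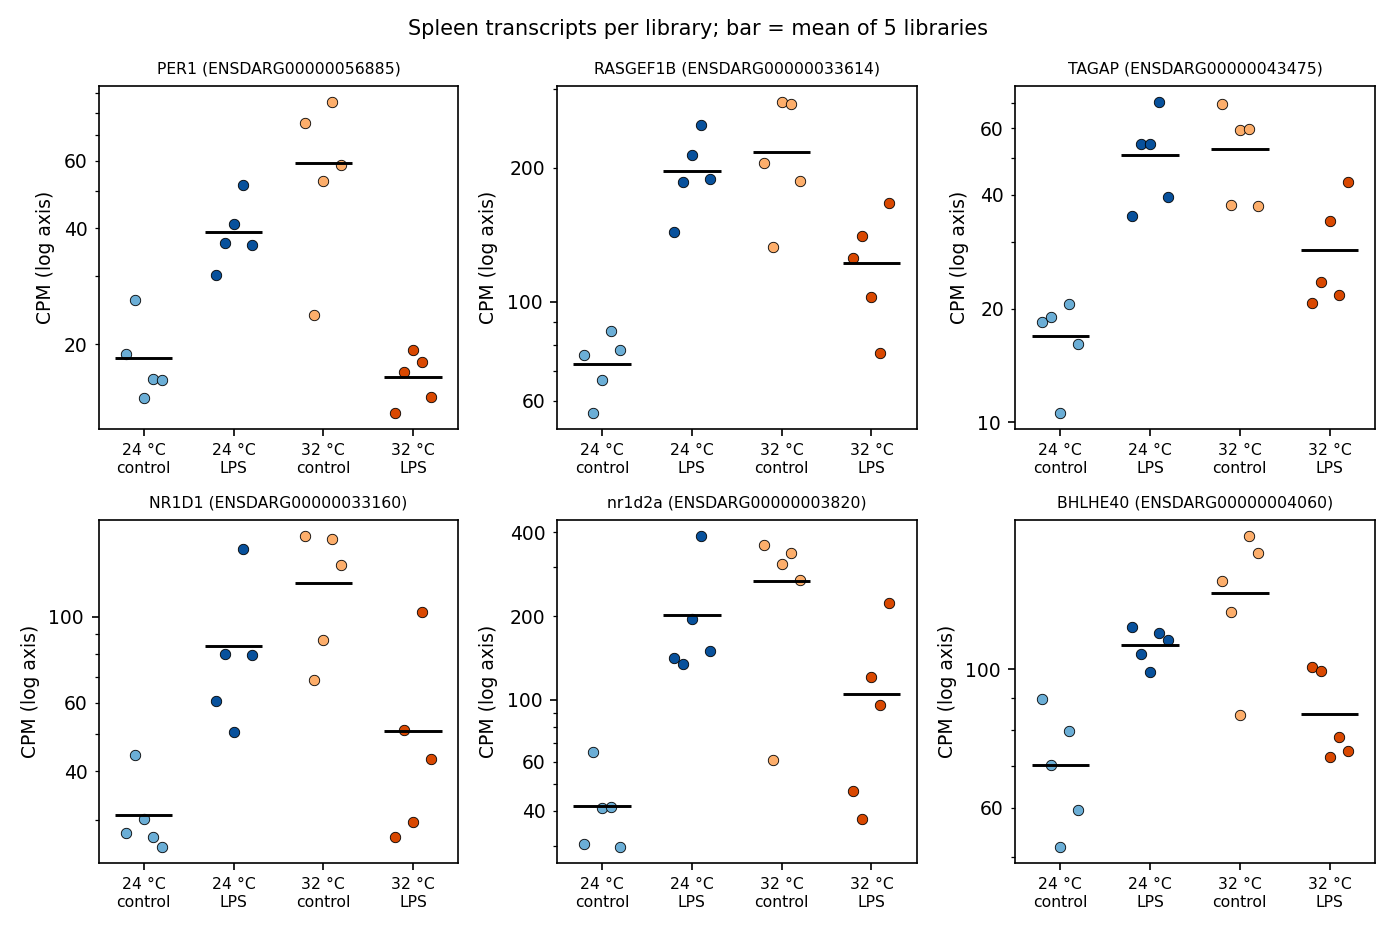
CPM per library on a log axis for PER1, RASGEF1B, TAGAP and the clock repressors NR1D1, nr1d2a and BHLHE40 in the 4 groups. Points are single libraries and bars the mean of 5. In each panel all LPS fish lie above all controls at 24 °C (2.04% of all tested genes), and the mean of LPS fish lies below that of controls at 32 °C. The genes shown are among the 25 with the smallest interaction p, so this arrangement describes them and tests nothing.

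Of the clock and light-responsive genes, 40 were tested and 1 was called by edgeR, PER1. At an unadjusted p under 0.05, 9 had a lower and 2 a higher response at 32 °C, or 22.5% lower against 4.03% of all tested genes (and 4.99% higher). The list was chosen with earlier results of these data known, so these shares describe its genes and test nothing. The median interaction of the 40 was -0.21, against 0.08 over all tested genes, and it was 0.06 without the 3 libraries that stood apart. The low values lay among repressors, though not all repressors had one. NR1D1 and nr1d2a are REV-ERB nuclear receptors that repress BMAL1 transcription, and BHLHE40 and BHLHE41 are DEC proteins that oppose CLOCK and BMAL1.

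NR1D1 was at 27.7, 44.2, 30.2, 27.2 and 25.5 CPM in controls and at 60.8, 80.2, 50.4, 149.5 and 79.8 CPM in LPS fish at 24 °C. At 32 °C it was at 161, 68.9, 87.2, 159 and 136 CPM in controls and at 27.2, 51.2, 29.6, 103 and 43.2 CPM in LPS fish. The groups were apart at 24 °C, while at 32 °C LPS replicate 4 lay within the controls. Its interaction of -2.71 ± 0.50 (SE, adjusted p = 0.115) was not called. The gene nr1d2a was at 30.3, 65.1, 41.1, 41.3 and 29.6 CPM in controls and at 142, 135, 195, 388 and 149 CPM in LPS fish at 24 °C. At 32 °C it was at 359, 60.8, 309, 336 and 269 CPM in controls and at 47.3, 37.5, 121, 96.1 and 223 CPM in LPS fish. The groups overlapped at 32 °C, where control replicate 3 was at 60.8 CPM. Its interaction was -3.63 ± 0.68 (SE, adjusted p = 0.119). DESeq2 called both (adjusted p = 2.18e-04 for NR1D1 and 8.34e-05 for nr1d2a), limma voom called NR1D1, and edgeR called both without 32 °C control replicate 3, NR1D1 without 32 °C LPS replicate 4 and nr1d2a without 32 °C LPS replicate 5.

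BHLHE40 was at 89.6, 70.27, 51.8, 79.5 and 59.5 CPM in controls and at 117, 106, 99.1, 115 and 111 CPM in LPS fish at 24 °C. At 32 °C it was at 138, 123, 84.5, 164 and 154 CPM in controls and at 100.8, 99.4, 72.4, 78.0 and 73.9 CPM in LPS fish. The groups were apart at 24 °C and overlapped at 32 °C, where control replicate 6 was low. The interaction was -1.29 ± 0.25 (SE, adjusted p = 0.132), which was not called. It was called by edgeR with all 30 libraries in the fit (adjusted p = 0.0311), without 32 °C control replicate 6 (0.0147) and without 32 °C LPS replicate 2 (0.0434), by DESeq2 (0.00182) and by limma voom (0.0221). BHLHE41 had -1.14 ± 0.36 (SE, adjusted p = 0.47). The output-loop repressors nfil3-5 (-1.71 ± 0.50) and nfil3-6 (-1.20 ± 0.44), the clock repressor ciarta (-1.17 ± 0.39) and nr1d4b (-2.36 ± 1.02), another REV-ERB relative, completed the 9, each with an adjusted p of 0.467 to 0.532.

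Other clock members did not share the low value. PER2, a repressor that light induces in zebrafish, was at 19.04, 29.6, 23.0, 18.5 and 28.3 CPM in controls and at 42.4, 65.1, 57.4, 58.2 and 68.5 CPM in LPS fish at 24 °C. At 32 °C it was at 23.8, 26.1, 31.4, 25.8 and 36.5 CPM in controls and at 79.0, 109, 68.2, 111 and 56.2 CPM in LPS fish. LPS fish lay above all controls at both temperatures, and PER2 rose by a log2 fold change of 1.299 ± 0.20 (SE, adjusted p = 0.0292) at 24 °C and by 1.56 ± 0.21 (SE, adjusted p = 0.00477) at 32 °C. Its interaction was 0.26 ± 0.29 (SE, adjusted p = 0.796), with a 95% interval from -0.33 to 0.86, which did not overlap the interval of PER1. The second PER1 gene (ENSDARG00000012499) had -0.33 ± 0.34, the cryptochromes CRY1 (ENSDARG00000045768) -0.44 ± 0.34 and CRY1 (ENSDARG00000011583) -0.36 ± 0.34, and PER3 0.42 ± 0.34. The activators BMAL1 (ENSDARG00000035732) and BMAL1 (ENSDARG00000006791) had 0.38 ± 0.66 and 0.13 ± 0.53. The 2 members above 0 at an unadjusted p under 0.05 were the cryptochrome cry3a (1.29 ± 0.42, adjusted p = 0.488) and cry5 (1.81 ± 0.85, adjusted p = 0.546), a photolyase that light induces in zebrafish. The remaining 29 members had unadjusted p from 0.0531 and interaction values from -0.76 to 1.08. Among them were the REV-ERB gene NR1D2 (ENSDARG00000009594), with 2642 to 7804 counts per library, and its relative nr1d4a, with 0 to 36.

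Of the glucocorticoid-responsive genes, 17 were tested and 1 was called by edgeR, PER1, which is also in the clock list. DESeq2 also called cited4a (adjusted p = 0.00189), FKBP5 (0.00614), CEBPD (0.00709) and ZBTB16 (0.04996), and edgeR called ZBTB16 without 32 °C LPS replicate 2 (0.0353). At an unadjusted p under 0.05, 10 of 17 (58.8%) had a lower and 1 a higher response at 32 °C, against 4.03% and 4.99% of all tested genes. The median interaction was -0.84, and -1.09 without the 3 libraries that stood apart. The median LPS log2 fold change was 0.95 at 24 °C and -0.23 at 32 °C, and the median difference of 32 °C controls from 24 °C controls was 0.81. In 10 of the 17 all LPS fish lay above all controls at 24 °C, an arrangement that 2.04% of all tested genes had. The genes of this list were chosen with earlier results of these data known, so the shares above describe them and test nothing.

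FKBP5, a co-chaperone of the glucocorticoid receptor, was at 13.8, 21.4, 22.9, 23.1 and 30.7 CPM in controls and at 312, 349, 856, 705 and 118 CPM in LPS fish at 24 °C. At 32 °C it was at 317, 74.8, 626, 430.1 and 272 CPM in controls and at 55.7, 20.2, 405, 59.7 and 700.4 CPM in LPS fish. The 24 °C controls lay below all fish of the 24 °C LPS and 32 °C control groups, while the 32 °C LPS fish spread over nearly the whole range. Its interaction of -4.86 ± 1.1 (SE, adjusted p = 0.319) was not called by edgeR. CEBPD, an inflammatory transcription factor, had means of 81.4 ± 31.2 and 188 ± 40.9 CPM at 24 °C and 197 ± 74.5 and 123 ± 41.1 CPM at 32 °C (SD, n = 5), with an interaction of -1.89 ± 0.42 (SE, adjusted p = 0.254). The groups did not overlap at 24 °C and overlapped at 32 °C.

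The leucine zipper protein tsc22d3, also called GILZ, had an interaction of -1.60 ± 0.43 (SE, adjusted p = 0.467) and the transcription factor KLF9 one of -2.74 ± 0.90 (SE, adjusted p = 0.488). The NF-kB inhibitor nfkbiab had -1.22 ± 0.34, the kinase sgk1 -0.84 ± 0.28, and the coactivator-binding proteins cited4a and cited4b -1.76 ± 0.34 and -0.67 ± 0.19. DDIT4, an inhibitor of mTOR signalling, had -4.96 ± 1.70 with 24 °C control replicate 4 at 25.7 CPM against 0.228 to 1.96 CPM in the other 4. ZBTB16, a transcription factor, had the opposite sign at 1.67 ± 0.42 (SE, adjusted p = 0.394). It was at 14.3, 21.3, 25.6, 19.6 and 22.8 CPM in 24 °C controls and at 9.95, 13.5, 8.30, 14.2 and 9.43 CPM in LPS fish, all below the controls (an arrangement of 1.49% of tested genes). At 32 °C it was at 12.2, 9.37, 15.3, 8.71 and 8.13 CPM in controls and at 19.2, 5.98, 22.7, 26.8 and 17 CPM in LPS fish, and the groups overlapped. The receptor gene NR3C1 itself had 0.47 ± 0.33 and DUSP1, a phosphatase, -0.38 ± 0.27, both with an unadjusted p over 0.05.

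**Figure D3:**
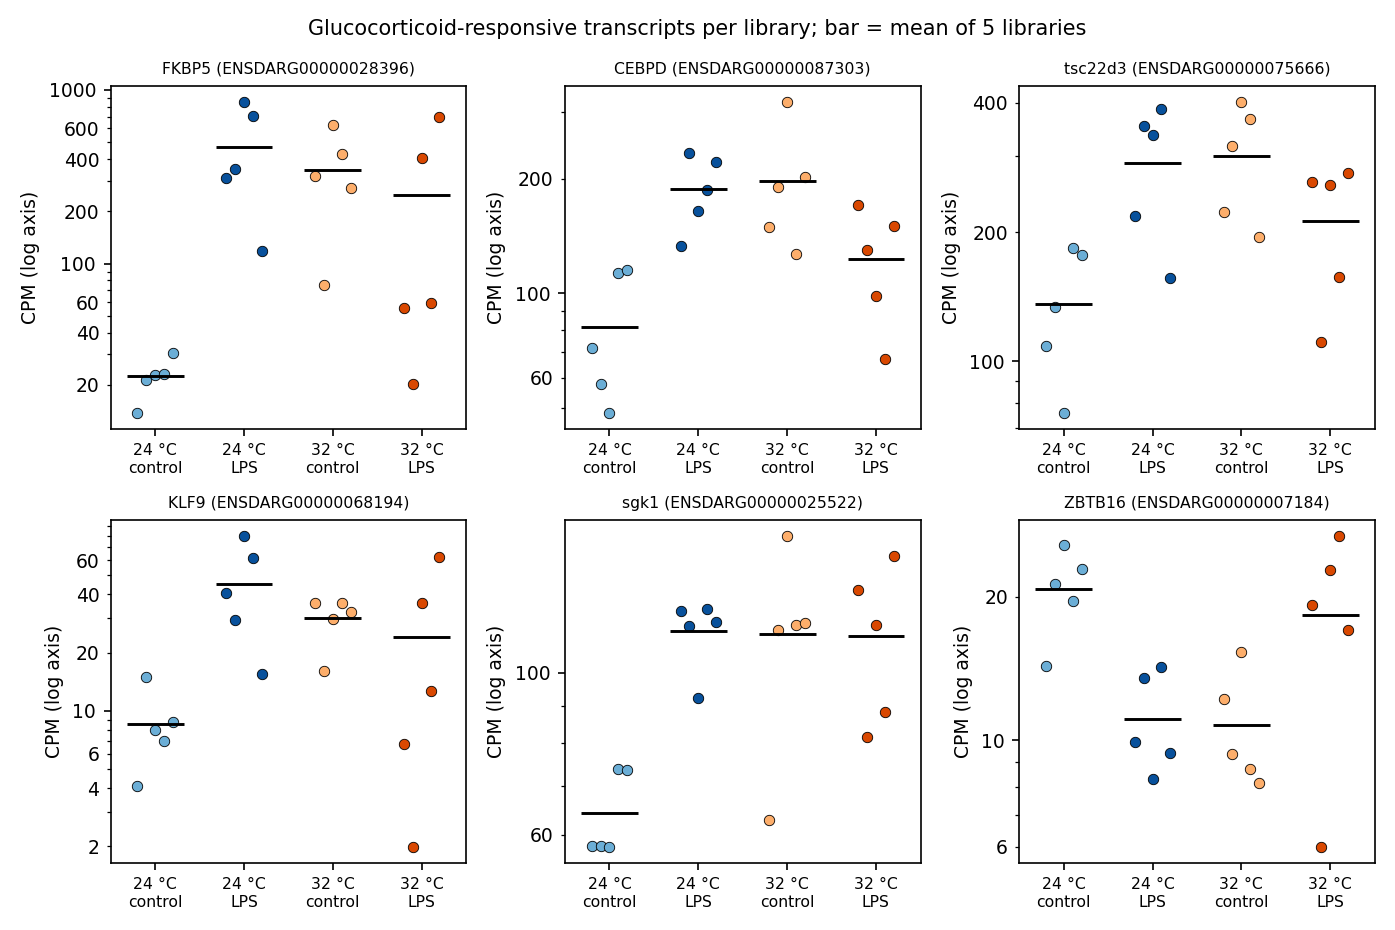
CPM per library on a log axis for FKBP5, CEBPD, tsc22d3, KLF9, sgk1 and ZBTB16 in the 4 groups, with bars at the mean of 5 libraries. For 5 of the 6 genes the mean is lowest in 24 °C controls, and for ZBTB16 the 24 °C LPS and 32 °C control means are the low ones.

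Among the 25 genes with the smallest interaction p, 24 had a value below 0 and BTBD9 (1.00 ± 0.24, adjusted p = 0.382) one above it. These genes were ranked by the interaction, so the following counts describe them and test nothing. The 24 were above 0 at 24 °C and below 0 at 32 °C, as were 18.9% of all tested genes, and BTBD9 was below 0 and then above 0, as were 26.3%. In 16 of the 25 all LPS fish lay above all controls at 24 °C, against 2.04% of all tested genes. In 4 all LPS fish lay below all controls at 32 °C (0.766% of all), and in 12 all 32 °C controls lay above all 24 °C controls (1.08% of all). The ranking used the same values, so nothing is read from these shares. The temperature difference was larger in size among controls than among LPS fish in 23 of the 25. Besides those described, they included signalling genes: ITPKC, an inositol trisphosphate kinase (-1.29 ± 0.26), IP6K2, an inositol hexakisphosphate kinase (-1.04 ± 0.24), PIK3R1, a regulatory subunit of PI3-kinase (-0.94 ± 0.22), SRGAP2B (-1.06 ± 0.23), and the adrenergic receptor ADRA2C (-1.78 ± 0.37). ADRA2C was at 39.6, 31.6, 25.6, 40.9 and 29.0 CPM in 32 °C controls and at 13.8, 23.7, 11.4, 9.40 and 9.57 CPM in LPS fish, with no overlap. At 24 °C its groups overlapped. Its adjusted p was 0.205 by edgeR, and it was called by DESeq2 (0.00462), by limma voom (0.0135), with the acinar covariate (0.0312), without 24 °C control replicate 2 (0.0425) and without 32 °C LPS replicate 2 (0.00912). DESeq2 also called ITPKC, IP6K2, PIK3R1 and SRGAP2B, which edgeR did not.

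The others were LDB2, a LIM-domain binding protein (-1.48 ± 0.32), lurap1 (-1.70 ± 0.40), tuft1a (-1.62 ± 0.38), the Myc relative mych (-0.91 ± 0.22), the muscle glycogen phosphorylase PYGM (-2.53 ± 0.62), the Ras-like RERGL (-4.80 ± 1.17), zgc:122979 (-3.51 ± 0.79), si:ch211-195b13.1 (-2.003 ± 0.41), si:dkey-184p18.2 (-3.02 ± 0.64) and si:ch1073-329i9.1 (-5.43 ± 1.26). None of these was called by edgeR with all 20 libraries (adjusted p from 0.195 to 0.382). DESeq2 called 9 of the 10, all but mych, and edgeR called LDB2 without 32 °C LPS replicate 2 (adjusted p = 0.0320). The 10 were ranked by the interaction on the same counts, so these calls test nothing. DESeq2's count over all tested genes is given above. In the simulated data described below DESeq2 called 20 unchanged genes and edgeR 4.

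**Figure D4:**
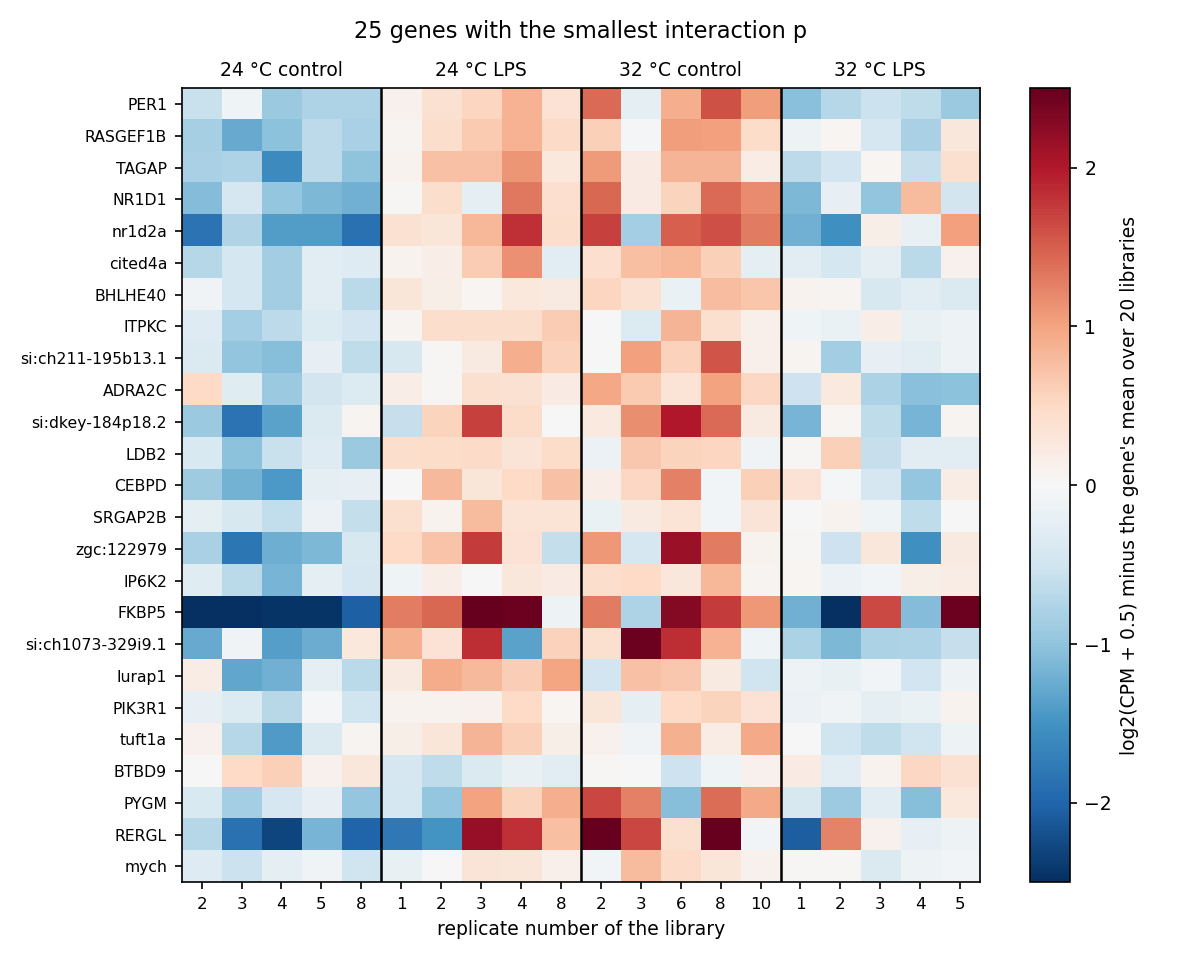
Log2(CPM + 0.5) minus the gene's mean over 20 libraries, with colour limits of 2.5, for the 25 genes with the smallest interaction p (rows, smallest at the top) in each library (columns, by replicate number). Most rows are low in 24 °C controls and high in 24 °C LPS fish and 32 °C controls. FKBP5 varies widely among 32 °C LPS fish.

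Of all tested genes, 44.4% had an interaction below 0, and 4.03% were lower and 4.99% higher at an unadjusted p under 0.05. The 10 immune gene lists that follow had interaction medians below 0 and held no member called by edgeR with all 20 libraries. They too were chosen with earlier results of these data known, so their counts and shares test nothing. Values below 0 were not confined to immune lists. Cytosolic ribosomal protein genes had 77 of 81 below 0 (median -0.24), and stromal, endothelial and adipose markers 14 of 18 (median -0.56). Cytokines and chemokines had 42 of 54 tested members below 0, a median of -0.59 and 4 members lower at an unadjusted p under 0.05. Their median LPS log2 fold change was 0.74 at 24 °C and 0.10 at 32 °C. The smallest p was that of il34, a growth factor of macrophages (-1.20 ± 0.30, adjusted p = 0.382). Of 44 genes of LPS sensing and NF-kB signalling, 31 were below 0 and 8 (18.2%) were lower at an unadjusted p under 0.05. They included the NF-kB regulator bcl3 (-2.04 ± 0.64), the cytokine signalling inhibitor SOCS3 (-1.96 ± 0.64) and the kinase IRAK4 (-1.33 ± 0.44).

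Antigen presentation genes had 16 of 19 below 0 and a median of -0.59. Markers of monocytes and macrophages had 14 of 15 below 0, a median of -0.71 and 5 lower at an unadjusted p under 0.05. The complement genes c1qa, c1qb and c1qc, which macrophages make, had interactions of -1.14 ± 0.44, -1.11 ± 0.34 and -1.25 ± 0.31. The gene c1qc was at 179.5, 309, 187, 279 and 181 CPM in 32 °C controls and at 88.0, 87.3, 112, 107 and 89.5 CPM in LPS fish. DESeq2 called c1qc (adjusted p = 0.04996) and neither of the other two. For all 3 every LPS fish lay below every control at 32 °C (0.766% of all tested genes), and the groups overlapped at 24 °C. Markers of B and plasma cells were below 0 in 11 of 11, with a median of -0.97, and included cd22 (-1.70 ± 0.54), cd79a (-1.44 ± 0.57) and ighm (-1.24 ± 0.56). Summed B and plasma cell markers were at 132 and 116 CPM in 32 °C LPS replicates 4 and 5. They were at 304 to 340 CPM in replicates 1, 2 and 3 of that group. Summed T and NK cell markers were at 99.5 and 88.0 CPM in replicates 4 and 5, against 178 to 259 CPM. The share below 0 was nearer to that of all tested genes in the other five. Neutrophil markers had 12 of 18 below 0, a median of -0.32, 0 lower and 2 higher at an unadjusted p under 0.05, which were cebp1 and cxcr1. Markers of T and NK cells had 15 of 25 below 0, a median of -0.15 and 0 at an unadjusted p under 0.05. Acute phase and antimicrobial genes had 10 of 19 below 0, a median of -0.18 and 1 lower at that p. Interferon-stimulated genes had 24 of 36 below 0, a median of -0.26 and 2 lower, and complement genes had 17 of 28 below 0, a median of -0.20 and 4 lower, 3 of them the c1q genes.

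Erythroid genes had the opposite sign, with 31 of 32 above 0, a median of 1.06 and 10 higher at an unadjusted p under 0.05, none called by edgeR. Without the 3 libraries that stood apart the median was 1.25. They included uros, an enzyme of haem synthesis (1.24 ± 0.40). The summed erythroid markers ranged from 168250 to 278760 CPM in 24 °C controls, from 134000 to 283990 in 24 °C LPS fish, from 121310 to 274020 in 32 °C controls and from 142310 to 390730 in 32 °C LPS fish. The summed monocyte and macrophage markers ranged from 2368 to 4060 CPM in 24 °C controls, from 3935 to 6886 in 24 °C LPS fish, from 2874 to 6452 in 32 °C controls and from 2256 to 5522 in 32 °C LPS fish. Within the 32 °C LPS group, replicates 4 and 5 had the highest erythroid sums, 390730 and 318750 CPM. They also had the lowest monocyte and macrophage sums, 2256 and 2748 CPM. These sums are relative to total counts, and the order of libraries can differ on the TMM scale used for single genes. The part of these shifts in the single-gene values was not tested. Heat shock and cold-inducible genes had 0 of 21 members at an unadjusted p under 0.05 and a median of 0.19.

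**Figure D5:**
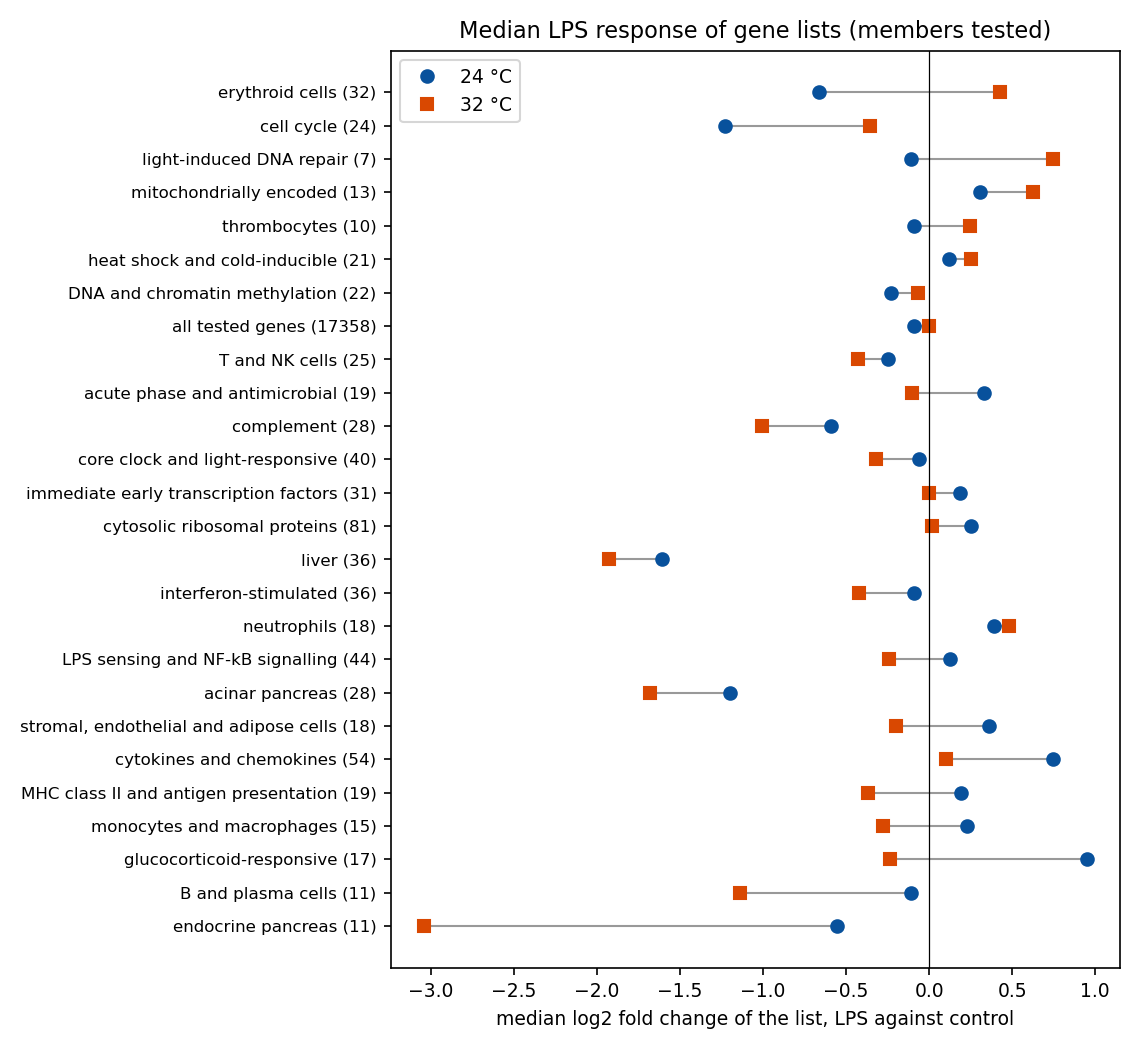
Median log2 fold change of LPS over control fish for the gene lists shown, each with at least 7 members tested, at 24 °C (circles) and 32 °C (squares), ordered by the median interaction, with the number of members tested in brackets. Glucocorticoid-responsive genes have a median of 0.95 at 24 °C and -0.23 at 32 °C, and erythroid genes lie the other way.

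The 5 highest interactions among genes with an unadjusted p under 0.01 whose highest group mean reached 5 CPM rested on 1 library. The genes zglp1, zp3e, zgc:111868, SLC16A3 and zpax1 had interactions of 8.08 ± 2.22, 8.44 ± 2.37, 9.90 ± 2.86, 8.09 ± 2.44 and 8.28 ± 2.53. In 24 °C control replicate 4, zpax1 was at 1608 CPM, against 0.748 to 1.32 CPM in the other 4 controls, and zp3e, an egg envelope gene, was at 945 CPM against 0.501 to 1.85. With each of the 20 libraries left out in turn, the lowest interactions of these genes were 1.58, 1.42, 1.04, 1.16 and -0.014, in the order above. By the same limits the 5 lowest values were those of si:dkey-29l4.4 (-7.13 ± 1.75), the elastase gene cela1.5 (-6.08 ± 2.00), DDIT4, FKBP5 and RERGL. The gene si:dkey-29l4.4 had 1 to 15 counts in 24 °C controls. It was at 14.3, 0.044, 18.3, 0.478 and 1.63 CPM in 24 °C LPS fish and at 1.67, 23.5, 11.3, 1.51 and 1.06 CPM in 32 °C controls. In 24 °C control replicates 4 and 5 cela1.5 had 0 counts. With each library left out in turn, si:dkey-29l4.4 lay between -7.87 and -6.11 and cela1.5 between -8.36 and -4.67. The value of si:ch1073-329i9.1 was lower than those of DDIT4, FKBP5 and RERGL, but its group means were all under 5 CPM. Cell cycle genes, with a median of 0.89 over 24 tested, had a median of -0.04 without the 3 libraries that stood apart.

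Fish incubated at 28 °C give the intermediate temperature in a fit of all 30 libraries. There PER1 was at 38.7 ± 16.2 CPM in controls and 23.6 ± 11.81 in LPS fish (SD, n = 5 each), TAGAP at 44.0 ± 16.1 and 37.1 ± 10.3, and RASGEF1B at 233 ± 25.8 and 114 ± 33.0. The LPS log2 fold changes were -0.72 ± 0.33, -0.24 ± 0.27 and -1.02 ± 0.22 (SE), none past the threshold (adjusted p = 0.582, 0.819 and 0.166 by edgeR).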

How the data were processed

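Polyadenylated RNA of adult zebrafish spleen was sequenced, and 20 of the 30 libraries were used for the interaction. The authors deposited raw whole-number counts for 31901 genes. The submitters' processing notes name the GRCz11 build and the tools STAR, bcl2fastq, FastQC 0.11.5, cutadapt 1.12 and DESeq2 1.11.1. Not given in the sources used here were the counting program, annotation and strand setting, and reads of paralogs or overlapping genes may be assigned to either. Symbols came from a table of names for 29178 genes, and shared symbols carry the ID. Coordinates and sequences were not used here.

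The test was run in edgeR 4.0.16 under R 4.3.3: filterByExpr, TMM scaling, one mean per group (16 residual degrees of freedom), a robust quasi-likelihood F test, and p-values adjusted by Benjamini-Hochberg over 17358 genes with 0.05 as the threshold. The SE is the size of the log2 value over the root of F. CPM are relative to TMM-scaled library sizes, except for marker sums, which are relative to total counts. Totals of 15586276 to 22976284 counts set the counting precision. All 40 pairs of libraries of one group differed beyond counting noise, with a chi-square of at least 31.8 per degree of freedom. Replicates follow the labels' numbering, which does not state separate fish, and a p-value here covers only the spread between samples, which may be technical. Scripts were tested on simulated data. For the interaction, edgeR called 5% of 100 genes changed 2-fold, 43% of 100 changed 4-fold and 4 unchanged genes. DESeq2 called 13%, 55% and 20 unchanged genes.

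The comparison, the 28 gene lists and the naming rule were chosen with earlier results of these data known, and 1 of the lists is not reported here. Named genes were the 25 smallest interaction p, the 5 highest and 5 lowest values among genes with p under 0.01 and at least 5 CPM in the highest group, up to 4 members per list with the smallest p, and the clock list. The mitochondrial list's pattern was widened after the counts were seen. Alternatives were DESeq2 size factors, TMM without other-organ and erythroid markers, 2 other filters, DESeq2 1.42.0, limma voom (limma 3.58.1), a non-robust fit, all 30 libraries, leaving out 3 libraries or each library, an acinar pancreas covariate and the replicate number as a block.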

Additional observations from a re-analysis of the deposited data

Results flagged for a closer look

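The responses at 24 and 32 °C differed by a test of the difference itself for PER1 (ENSDARG00000056885; -2.95 on the log2 scale, 32 minus 24 °C), RASGEF1B (ENSDARG00000033614; -2.26) and TAGAP (-2.47), as described above.

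For the genes given with their values per library, each group of 5 was examined for a library whose gap to the nearest other exceeded Dixon's 95% critical value as a share of the group's range. For independent, normally distributed values chance gives about 1 in 20 groups, a rate that CPM of genes varying together need not follow. Such a library was found in 23 of 208 groups. Of these, 24 °C LPS replicate 4 accounted for 8 and 24 °C control replicate 4 for 6.

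In 24 °C LPS replicate 4, 4 clock genes were above the other libraries of the group by more than that critical value. There nr1d2a was at 388 CPM, ciarta at 100.5 CPM, nfil3-6 at 78.9 CPM and nr1d4b at 2.75 CPM. In that library PIK3R1 was at 176 CPM, NR3C1 at 152 CPM and DDIT4 at 41.0 CPM, also above the others, and LDB2 was below them at 21.99 CPM. The clock gene BHLHE41 was lowest there, at 22.6 CPM. Among genes that did not exceed the critical value, PER1 (ENSDARG00000056885; 51.9 CPM) and NR1D1 (149.5 CPM) were also highest in that library. So were RASGEF1B (ENSDARG00000033614; 250.0 CPM) and TAGAP (70.6 CPM). In 24 °C control replicate 4, zglp1 was at 113 CPM, zp3e at 945 CPM, zgc:111868 at 1417 CPM, SLC16A3 at 267 CPM, zpax1 at 1608 CPM and DDIT4 at 25.7 CPM.

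In 32 °C LPS replicate 4, ciarta was at 95.8 CPM and PER1 (ENSDARG00000012499) at 252 CPM, both above the others of the group. The remaining libraries apart were 24 °C control replicate 3 for NR1D1 (44.2 CPM), 32 °C LPS replicate 3 for ITPKC (32.9 CPM), 24 °C LPS replicate 2 for BHLHE41 (40.7 CPM) and 32 °C LPS replicate 5 for cela1.5 (4.07 CPM). In 24 °C LPS replicate 3, sgk1 was low at 92.4 CPM and zgc:111868 high at 0.729 CPM. In 32 °C control replicate 2, SLC16A3 was high at 0.894 CPM.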

How the results depend on the processing

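DESeq2 gave 31 genes for the interaction, 171 for LPS at 24 °C, 30 for LPS at 32 °C, 163 between controls and 5 between LPS fish, against 3, 3, 2, 3 and 0 with edgeR. Limma voom gave 6 for the interaction and 0 between controls. Without the 3 libraries that stood apart the interaction count was 1, and LPS at 24 °C, LPS at 32 °C and the controls gave 0 each. Fitting all 30 libraries gave 1 for LPS at 32 °C, and the acinar covariate gave 7. Leaving out each library gave 3 to 9 for the interaction, 0 to 4 for LPS at 24 °C, 2 to 3 for LPS at 32 °C, 0 to 9 between controls and 0 to 112 between LPS fish. The cause of these changes was not tested. Size factors, TMM without other-organ and erythroid markers, both filters and the non-robust fit kept all 5 counts within 1.5 times.

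Whether the replicate numbers pair the libraries could not be decided from their correlations. Of 20 same-number pairs, 8 correlated above 0.1 (range -0.145 to 0.429), and their median was 0.062 against -0.023 for other pairs. With the replicate number as a block the counts were 0 for the interaction, 10 for LPS at 24 °C, 1 for LPS at 32 °C and 1 between controls. There PER1 was at -2.85 (adjusted p = 0.187), RASGEF1B at -2.28 (0.178) and TAGAP at -2.78 (0.116).

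The interaction changed sign for 12 named genes, none called. With voom these were buc (-0.10), CCNB2 (-0.68), DNMT1 (-0.088), PER2 (-0.038) and BMAL1 (ENSDARG00000006791; -0.69). Without the 3 libraries they were buc (-0.65), CCNB2 (-0.93), vtg2 (2.15), vtg7 (4.33), vtg5 (3.68), PER1 (ENSDARG00000012499; 0.051) and BMAL1 (ENSDARG00000006791; -0.85). With the block they were CCNB2 (-0.60), zbtb16b (-0.54) and BMAL1 (ENSDARG00000006791; -0.17). Over the leave-outs the ranges that crossed 0 were -0.014 to 8.602 for zpax1, -0.79 to 7.97 for buc, -0.97 to 5.705 for CCNB2, -9.36 to 1.59 for vtg5, -0.0065 to 0.79 for BMAL1 (ENSDARG00000035732) and -0.62 to 0.30 for BMAL1 (ENSDARG00000006791).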
